A study of Mus musculus with 13 samples.

Results

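The 39 genes described here are a fixed list of genes that type I interferon switches on or that carry its signal. They were listed by name and function, without a threshold on any measured value, but with earlier results of these data known. On the arrays 37 of the 39 were measured, among 18194 genes in all, each through its brightest probe set by mean. Isg15, which lies on a probe set shared with another gene, and Ifi44 were not analysed here. RNA came from P14 CD8+ T cells of C57Bl/6 mice, whose transgenic T cell receptor gives most CD8+ T cells a single specificity. All groups carry this receptor. The 4 groups were Batf-/- cells at day 3 (4 arrays), wild-type (WT) cells at day 3 (4 arrays), Batf-/- naive cells (3 arrays) and WT naive cells (2 arrays). Day 3 cells had been stimulated in culture for 3 days with 100 U/ml IL-2 on plates coated with CD3 and CD28 antibodies, and naive cells were taken on day 0. The Batf-/- label names no cell type to which the loss is restricted. The labels name no added interferon. Batf pairs with Jun proteins at AP-1 sites and acts with interferon regulatory factors in activated lymphocytes.

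Type I interferons bind the receptor Ifnar1 and Ifnar2. Jak kinases at the receptor then activate Stat2, which acts with Irf9 in a complex that binds the interferon stimulated response element in promoters. The induced genes include sensors of viral RNA, enzymes and binding proteins that block viruses, and feedback regulators. T cells respond to interferon and also express many of these genes at a basal level.

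Values are log2 intensities, and every difference is on that scale. Median intensities lay between 31.5 and 32.5 in the 13 arrays. Batf itself lay between 5.56 and 6.78 in Batf-/- day 3 arrays, against 8.63 to 9.19 in WT day 3 arrays. In naive cells it lay between 5.60 and 6.06 in Batf-/- arrays, against 9.19 and 9.36 in WT arrays. Every Batf-/- array was below every WT array. The CD8 T cell markers averaged between 11.8 and 12.3 in every array, whereas Foxp3 was below 4.35, a value called dim here because the lowest 40% of probe sets have means under it. Whether replicate arrays derive from different mice or cultures is not given in the labels, and p-values therefore measure only the spread between arrays, which may be technical.

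The sequence to which the interferon factors bind was looked for first, because the genes were listed for their response to interferon. RefSeq promoters (GRCm38.p6, 250 bases before to 50 after a transcription start) were on hand for 28 of the 39 genes, with 36 starts. The core of the interferon response element, GAAANNGAAA on either strand, was in the promoters of 12 of the 28 genes (42.9%), against 3.99% of all 27025 genes with a promoter. The 12 were Stat2, Isg15, Ifih1, Ddx58, Eif2ak2, Oas1a, Oas3, Ifit1, Ifit3, Rsad2, Bst2 and Trim30a. Of the matches, 8 that span the responses described below are printed with flanking bases, 5′ to 3′ on the strand of the gene, and capitals mark the core, which is its reverse complement where it begins with T.
Ifit1, upstream match, chr19:34640780-34640799: ttcagTTTCACTTTCcagtc
Ifit1, downstream match, chr19:34640799-34640818: ctcagTTTCAGTTTCtcact
Ifih1, chr2:62646209-62646228: gaatcGAAACAGAAAccgat
Oas1a, chr5:120907525-120907544: aaatgGAAACTGAAAatcta
Rsad2, chr12:26456558-26456577: ccaacTTTCATTTTCagaaa
Oas3, chr5:120777720-120777739: gaggaGAAAACGAAAgtgaa
Eif2ak2, chr17:78882540-78882559: gccggGAAAACGAAAcagaa
Stat2, chr10:128270271-128270290: cctggTTTCAGTTTCctttc

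These 7 genes were picked to span the responses on stimulation, with log2 differences in WT cells between -4.23 for Ifit1 and 0.86 for Stat2. Only Stat2 rose among them in WT cells. The other measured genes with the core, Ddx58, Ifit3, Bst2 and Trim30a, were all lower at day 3 in WT cells (between -2.31 for Ifit3 and -0.44 for Bst2). The AP-1 site, searched as TGANTCA with any middle letter on either strand, was in the promoters of 6 of the 28 genes (21.4%), against 8.97% of all genes. The genes were Oas3, Ifit3, Rsad2, Trim30a, Ifi35 and Xaf1. The middle letter was T in Ifit3, A in Trim30a and C or G in the others, so the first 2 match only a loose form of the site. Of these, Oas3, Ifit3, Rsad2 and Trim30a also hold the interferon element, and no match of one motif overlapped one of the other. An AP-1 site joined to an interferon factor core GAAA was searched in both its known spacings, as TTTCNNNNTGANTCA and as GAAATGANTCA. Neither was in any of the 28 genes, and both are rare, in 0.133% and 0.141% of all genes. A match describes the letters of the window and is not a measured binding site.

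**Figure D1:**
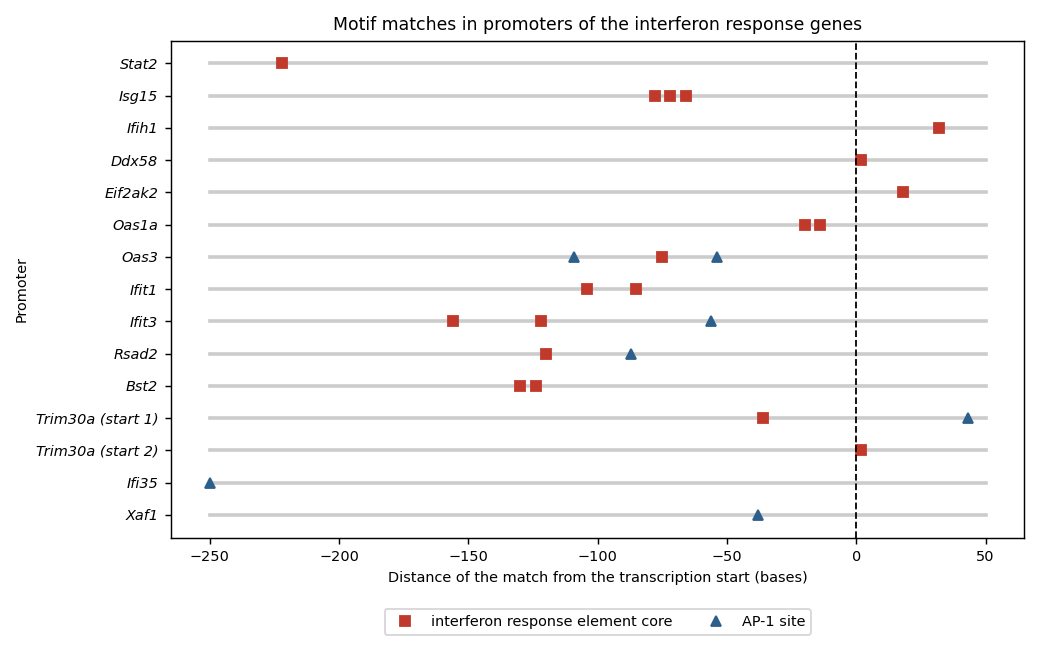
Matches in the promoters of the interferon response genes that hold at least 1 match, by distance from the transcription start in bases (grey line, 250 before to 50 after). Squares are the interferon response element core and triangles the AP-1 site, and matches of both kinds share a promoter in Oas3, Ifit3, Rsad2 and Trim30a.

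Whole promoters of 3 genes are shown, chosen for the changes of the genes in these data. The first is that of Ifit1, the gene with the deepest fall, at chr19:34640639-34640938 on the plus strand.
Ifit1: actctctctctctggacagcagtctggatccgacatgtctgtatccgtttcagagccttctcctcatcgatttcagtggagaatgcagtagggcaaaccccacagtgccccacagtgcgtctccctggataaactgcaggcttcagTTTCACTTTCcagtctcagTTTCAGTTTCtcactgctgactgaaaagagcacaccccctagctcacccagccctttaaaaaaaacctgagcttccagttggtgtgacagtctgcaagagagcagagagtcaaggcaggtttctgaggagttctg
The second is that of Stat2, at chr10:128270248-128270547 on the plus strand, a gene that rose and whose promoter also has the core.
Stat2: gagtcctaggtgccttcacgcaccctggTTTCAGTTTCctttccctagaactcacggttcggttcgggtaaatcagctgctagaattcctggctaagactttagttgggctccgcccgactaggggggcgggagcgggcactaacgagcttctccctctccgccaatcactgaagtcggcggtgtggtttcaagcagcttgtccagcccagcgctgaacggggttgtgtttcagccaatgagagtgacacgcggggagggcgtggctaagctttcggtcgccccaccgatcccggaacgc
Last is the first of 3 starts of Isg20, at chr7:78913174-78913473 on the plus strand, the gene that differed between the genotypes at day 3. None of its 3 starts holds either motif.
Isg20: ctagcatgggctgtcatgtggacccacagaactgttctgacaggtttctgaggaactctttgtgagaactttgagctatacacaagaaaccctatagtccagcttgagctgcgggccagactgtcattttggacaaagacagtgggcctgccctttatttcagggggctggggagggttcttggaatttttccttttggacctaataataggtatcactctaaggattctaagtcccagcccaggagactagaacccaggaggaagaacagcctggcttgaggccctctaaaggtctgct

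The comparison of day 3 with naive cells asks how the interferon response genes differ between CD8+ T cells stimulated in culture and naive cells. In both genotypes most of these genes fell. In Batf-/- cells 34 of 37 genes passed the test at an adjusted p below 0.05 (limma over all genes, Benjamini-Hochberg), 27 of them lower and 7 higher at day 3. In the same comparison 47% of all genes passed, 23.2% lower and 23.8% higher. In WT cells 35 of 37 passed, 29 lower and 6 higher, and of all genes 45.4% passed, 23% lower and 22.4% higher. The median log2 difference of the 37 genes was -0.79 in Batf-/- cells and -1.08 in WT cells, against 0.05 for all genes in both. The same 27 genes were lower in both genotypes, which is 73% of the 37, against 19.6% of all genes. Falls of at least 4-fold were seen in 8 of the 37 genes in Batf-/- cells (21.6%, against 1.33% of all genes) and in 9 in WT cells (24.3%, against 1.15%). In these bulk samples fewer cells of a type and less RNA per cell cannot be told apart. No group was cultured without stimulation, so the antibodies, IL-2 and time in culture cannot be told apart either. A change on stimulation therefore means only day 3 against naive.

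**Figure D2:**
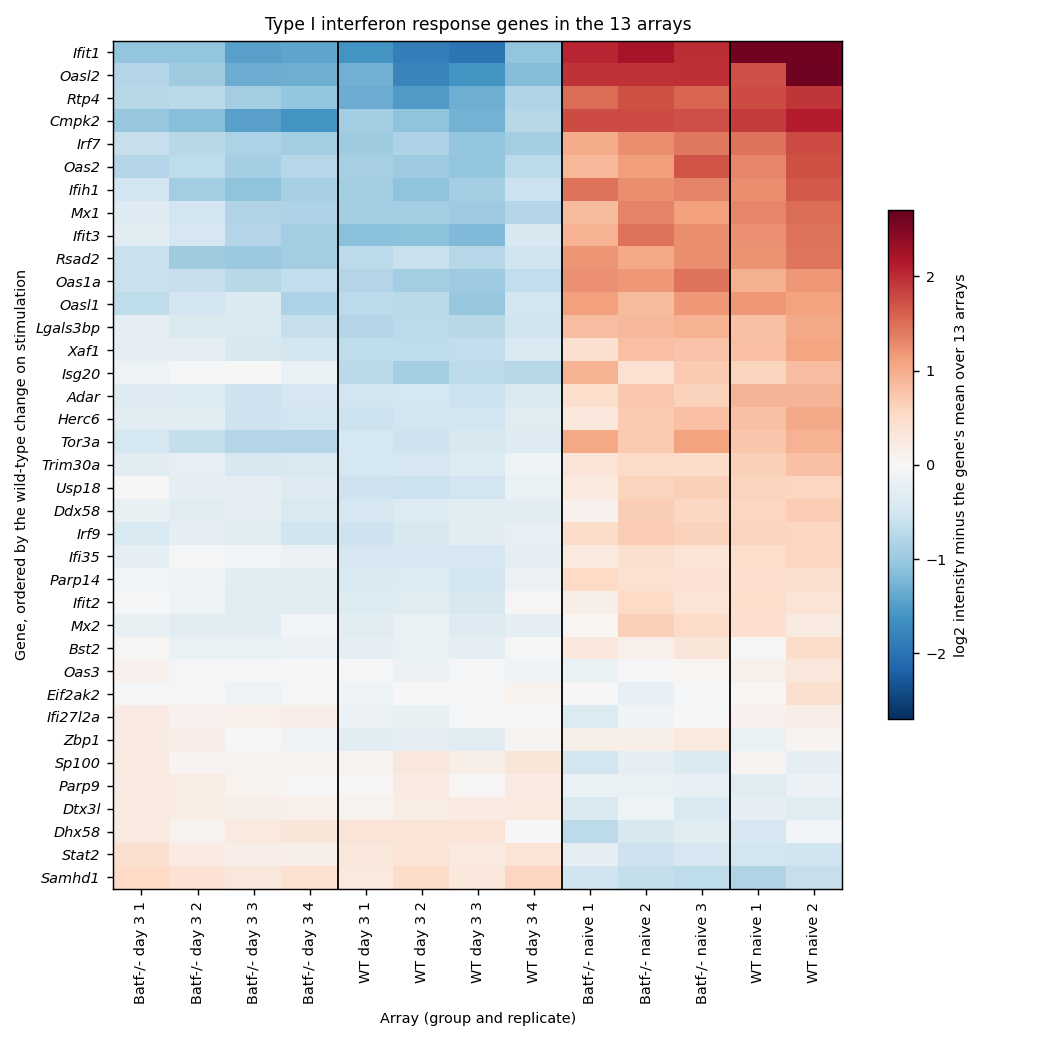
Log2 intensity of each of the 37 genes (rows) in each of the 13 arrays (columns, by group and replicate) minus the mean of the gene over the arrays, ordered by the WT change on stimulation. The upper rows are low in the 8 day 3 arrays and high in the 5 naive arrays, and the lowest rows, from Sp100 to Samhd1, mostly show the opposite.

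Most markers of other blood cells also fell, and their part in the fall of the interferon response genes was not tested. The exception was the CD4 T cell list, of which 0 of 4 genes were lower and 3 were higher in Batf-/- and 1 was higher in WT cells at day 3. The 5 measured NK cell markers were all lower at day 3 in both genotypes, and their mean lay between 4.57 and 4.77 in Batf-/- and between 4.48 and 4.69 in WT day 3 arrays, against 7.36 to 8.22 in Batf-/- and 6.51 to 6.71 in WT naive arrays. The B cell markers were lower for 7 of 9 genes in Batf-/- and 5 of 9 in WT cells, with means of 4.62 to 4.77 and 4.65 to 4.75 at day 3, against 6.34 to 6.79 and 5.75 to 6.09 in naive cells. Neutrophil markers were lower for 6 of 8 genes in Batf-/- and 3 of 8 in WT cells. Within this list 1 array stands apart, Batf-/- naive replicate 1, with a neutrophil mean of 9.13, against 4.95 and 6.05 in the other Batf-/- naive arrays and 5.87 and 5.46 in the WT naive arrays. Plasmacytoid dendritic cells are a strong source of interferon and express Irf7 and Bst2. Of their markers 6 of 8 were lower and 1, Cox6a2, was higher in each genotype, and the list had means of 5.64 to 5.72 in Batf-/- and 5.58 to 5.63 in WT day 3 arrays, against 7.54 to 7.72 and 7.35 to 7.58 in naive arrays. Siglech, which defines these cells, lay between 4.39 and 4.79 in all 13 arrays, close to the dim level, and did not pass in either genotype. The means of the list include Ccr9, which lay between 10.84 and 11.83 in naive arrays, against 5.68 to 6.82 at day 3. RNA of a bulk sample does not show which cells express the listed markers, so the fall does not establish a loss of plasmacytoid dendritic cells. Markers of conventional dendritic cells were lower for 6 of 6 genes in Batf-/- and 5 of 6 in WT cells, and those of monocytes and macrophages for 6 of 8 and 4 of 8.

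Among the factors that carry the signal, Irf7 and Irf9 fell and Stat2 rose. Irf7, which amplifies interferon responses, had log2 intensities of 6.88, 6.77, 6.66 and 6.58 in Batf-/- day 3 arrays, against 8.51, 8.76 and 8.95 in Batf-/- naive arrays. In WT cells it was 6.55, 6.67, 6.47 and 6.60 at day 3, against 8.99 and 9.27 in naive cells. All day 3 arrays lay below all naive arrays, and the differences were -2.02 ± 0.11 in Batf-/- (limma, adjusted p = 7.9e-09) and -2.56 ± 0.12 in WT cells (adjusted p = 3.67e-09), where ± is the standard error. Irf9, the subunit that recognises DNA in the Stat complex, was 8.74, 8.89, 8.85 and 8.61 in Batf-/- day 3 arrays, against 9.65, 9.84 and 9.78 in Batf-/- naive arrays. In WT cells Irf9 was 8.59, 8.71, 8.87 and 8.94 at day 3, against 9.74 and 9.73 in naive cells, so again no day 3 array reached a naive one. Its differences were -0.98 in Batf-/- and -0.96 in WT cells. Stat2, its partner, went the other way, with 7.26, 7.06, 7.00 and 6.99 in Batf-/- day 3 arrays, against 6.56, 6.27 and 6.38 in Batf-/- naive arrays. In WT cells Stat2 was 7.12, 7.20, 7.10 and 7.20 at day 3, against 6.31 and 6.29 in naive cells, and its differences were 0.67 ± 0.08 in Batf-/- and 0.86 ± 0.09 in WT cells. The second probe set of Stat2 also pointed upwards in Batf-/- cells but did not pass there (log2 difference 0.29, limma adjusted p = 0.0711 over all probe sets).

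The 3 Ifit genes, whose proteins bind viral RNA, all fell. Ifit1 (chr19:34640889-34650009) was 5.46, 5.46, 5.06 and 5.10 in Batf-/- day 3 arrays, against 8.58, 8.75 and 8.51 in Batf-/- naive arrays. In WT cells Ifit1 was 4.91, 4.66, 4.54 and 5.46 at day 3, against 9.12 and 9.12 in naive cells. The gap between states was many times the spread within a group, and Ifit1 was 10.1-fold lower at day 3 in Batf-/- cells (log2 difference -3.34 ± 0.18, adjusted p = 8.58e-09) and 18.7-fold lower in WT cells (-4.23 ± 0.21, adjusted p = 3.87e-09). Ifit3 changed by -1.84 in Batf-/- and by -2.31 in WT cells, and Ifit2 by -0.55 and -0.70. All 3 passed in both genotypes.

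The oligoadenylate synthetases, which sense double-stranded RNA and switch on RNase L, and their relatives fell in Batf-/- cells in 4 of 5 cases and in WT cells in 5 of 5. Oasl2 was 4.77, 4.59, 4.23 and 4.24 in Batf-/- day 3 arrays, against 7.50, 7.51 and 7.52 in Batf-/- naive arrays. In WT cells Oasl2 was 4.26, 3.78, 3.94 and 4.39 at day 3, against 7.31 and 8.19 in naive cells. The WT day 3 mean, 4.09, is dim, so the WT difference of -3.66 ± 0.23 is a lower bound by size, and the Batf-/- difference was -3.05 ± 0.20. Oas2, Oas1a and Oasl1 changed by between -2.03 and -1.66 in Batf-/- and between -2.44 and -1.87 in WT cells. Oas3 stood apart, at 0.07 in Batf-/- cells (adjusted p = 0.49) and -0.30 in WT cells (adjusted p = 0.00825, but 0.125 without WT naive replicate 2).

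Of the 6 genes listed with the sensors of nucleic acids, among them the editing enzyme Adar, 3 fell in both genotypes and 1 rose. Ifih1, the sensor of long double-stranded RNA also called MDA5, was 7.08, 6.65, 6.49 and 6.68 in Batf-/- day 3 arrays, against 9.05, 8.84 and 8.92 in Batf-/- naive arrays. In WT cells Ifih1 was 6.64, 6.49, 6.67 and 7.00 at day 3, against 8.85 and 9.24 in naive cells. Its differences were -2.21 ± 0.15 in Batf-/- and -2.35 ± 0.17 in WT cells, with no overlap between states. Adar, which edits double-stranded RNA, changed by -1.04 in Batf-/- and -1.41 in WT cells. Ddx58, the sensor RIG-I, changed by -0.74 and -0.99, but 1 of its 2 other probe sets did not pass in Batf-/- cells (-0.05). Dhx58, known as LGP2 and a modulator of both sensors, rose, with 8.17, 8.02, 8.19 and 8.26 in Batf-/- day 3 arrays, against 7.22, 7.49 and 7.61 in Batf-/- naive arrays. In WT cells Dhx58 was 8.26, 8.26, 8.26 and 7.94 at day 3, against 7.48 and 7.84 in naive cells. The differences were 0.72 ± 0.12 in Batf-/- and 0.52 ± 0.13 in WT cells, and the WT value fell short without WT naive replicate 1 (0.34, limma adjusted p = 0.116, the highest of 13 fits that left out 1 array, with 0.00193 the lowest). A dim other probe set of Dhx58 did not pass in either genotype (0.03 in Batf-/- and -0.18 in WT cells), while another passed as higher (0.56 and 1.38). Zbp1 and Eif2ak2, a sensor of Z-form nucleic acid and the kinase PKR, did not pass in either genotype. Zbp1 differed by -0.12 in Batf-/- and -0.14 in WT cells, and Eif2ak2 by 0.03 and -0.25. The other probe set of Zbp1 did pass as lower, by -0.52 in Batf-/- and -0.66 in WT cells. Of the 2 others of Eif2ak2, 1 passed as lower in both genotypes (-0.40 in Batf-/- and -0.82 in WT cells) and 1 in WT cells alone (-0.23 with adjusted p = 0.0993 in Batf-/- cells and -0.48 in WT cells).

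Of the 8 genes listed as restriction factors, 7 fell in both genotypes. Cmpk2, a nucleotide kinase encoded next to Rsad2, was 5.42, 5.30, 4.97 and 4.82 in Batf-/- day 3 arrays, against 8.20, 8.20 and 8.19 in Batf-/- naive arrays. In WT cells Cmpk2 was 5.50, 5.34, 5.17 and 5.69 at day 3, against 8.33 and 8.55 in naive cells. The fall was near equal in size in both genotypes, with differences of -3.07 ± 0.14 in Batf-/- and -3.01 ± 0.16 in WT cells. The other probe set of Cmpk2 also passed as lower, but by less (-0.98 in Batf-/- and -0.70 in WT cells). Rsad2, or viperin, changed by -2.04 and -1.98, and Mx1, a GTPase that blocks several viruses, by -1.72 and -2.32. Trim30a, Mx2 and the tethering protein Bst2 fell less, with differences between -0.79 and -0.38 in Batf-/- cells and between -1.08 and -0.44 in WT cells. Samhd1, which breaks down the building blocks of DNA, was the exception and rose. It was 11.70, 11.56, 11.48 and 11.58 in Batf-/- day 3 arrays, against 10.63, 10.51 and 10.48 in Batf-/- naive arrays. In WT cells Samhd1 was 11.44, 11.66, 11.46 and 11.74 at day 3, against 10.35 and 10.54 in naive cells. It was 2.05-fold higher at day 3 in Batf-/- (log2 difference 1.03 ± 0.09) and 2.18-fold higher in WT cells (1.13 ± 0.10), although 1 of its 4 other probe sets did not pass in WT cells (0.15).

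Genes of the ISG15 and ubiquitin pathway and the ADP-ribosylating enzymes were mixed. Dtx3l and Parp9, which form a ubiquitin ligase complex, rose together. Dtx3l was 10.81, 10.77, 10.72 and 10.71 in Batf-/- day 3 arrays, against 10.19, 10.44 and 10.16 in Batf-/- naive arrays. In WT cells Dtx3l was 10.66, 10.76, 10.78 and 10.84 at day 3, against 10.33 and 10.24 in naive cells. Its differences of 0.49 ± 0.07 in Batf-/- and 0.47 ± 0.08 in WT cells were small but larger than the spread. Parp9 was 10.81, 10.79, 10.68 and 10.63 in Batf-/- day 3 arrays, against 10.40, 10.42 and 10.37 in Batf-/- naive arrays. In WT cells Parp9 was 10.62, 10.81, 10.61 and 10.82 at day 3, against 10.26 and 10.43 in naive cells. The Parp9 differences were 0.33 ± 0.08 in Batf-/- and 0.37 ± 0.09 in WT cells, and the WT one did not pass without WT naive replicate 1 (0.28, limma adjusted p = 0.0576, against 0.00285 to 0.0576 over the 13 fits that left out 1 array). Usp18, which removes ISG15 from proteins and damps the receptor, fell, with differences of -0.71 and -1.06. Herc6, a mouse ligase for ISG15, changed by -1.02 and -1.39, and Parp14 by -0.64 and -0.79. The other probe set of Parp14 did not pass in either genotype (0.07 in Batf-/- and 0.05 in WT cells).

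Among the remaining genes, Rtp4, named as a receptor transporter protein, changed most. It was 8.93, 8.97, 8.75 and 8.65 in Batf-/- day 3 arrays, against 11.20, 11.41 and 11.26 in Batf-/- naive arrays. In WT cells Rtp4 was 8.35, 8.15, 8.36 and 8.88 at day 3, against 11.44 and 11.61 in naive cells. It was 5.52-fold lower in Batf-/- cells (log2 difference -2.46 ± 0.14) and 8.52-fold lower in WT cells (-3.09 ± 0.16). Tor3a, Lgals3bp, Xaf1 and Ifi35 also fell in both genotypes, with differences between -1.63 and -0.49 in Batf-/- and between -1.60 and -0.94 in WT cells. Sp100, a protein of nuclear bodies, was 9.82, 9.66, 9.67 and 9.66 in Batf-/- day 3 arrays, against 9.10, 9.31 and 9.18 in Batf-/- naive arrays. In WT cells Sp100 was 9.65, 9.89, 9.74 and 9.91 at day 3, against 9.66 and 9.32 in naive cells, and there the states overlapped. Its differences were 0.50 ± 0.09 in Batf-/- and 0.31 ± 0.11 in WT cells, but its other probe set was called lower, by -0.58 and -0.73, so its direction depends on the probe set. The WT call was also lost in 3 of 13 fits that left out 1 array.

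**Figure D3:**
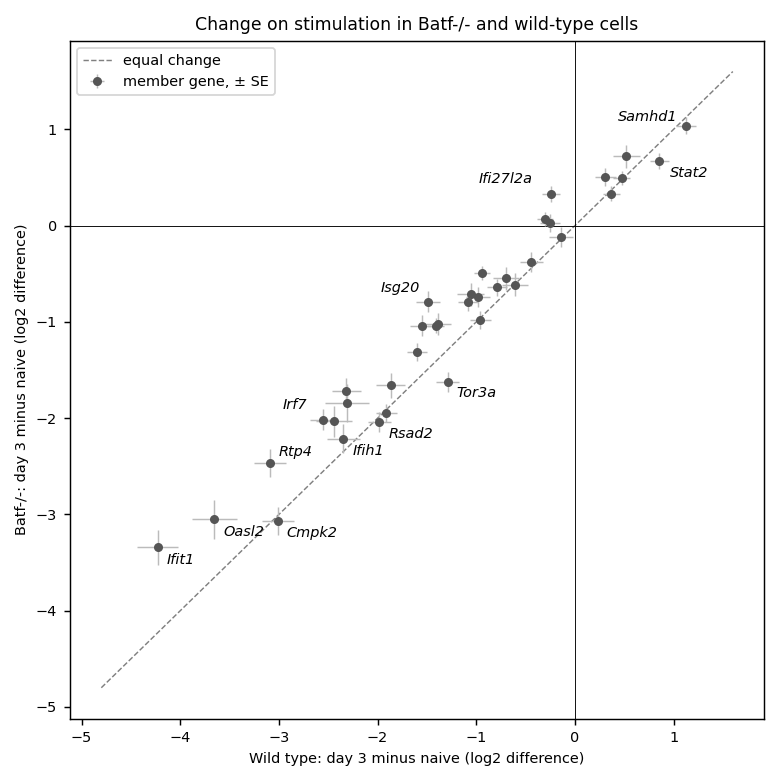
Log2 difference of day 3 minus naive in Batf-/- cells (vertical axis) against the same in WT cells (horizontal axis) for the 37 genes, with standard errors as grey bars and the line of equal change dashed. Most points lie at negative values on both axes, and Ifit1, at -3.34 in Batf-/- and -4.23 in WT cells, is the lowest.

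Both genotypes gave similar orders of change. The Pearson correlation between their log2 differences across the 37 genes was 0.979, against 0.945 across all genes. It is given as a description, since genes are not independent replicates. The comparisons share no arrays. Of the 27 genes that fell in both genotypes, 21 fell less in Batf-/- cells (77.8%), which is close to the 70.6% among all genes that fell in both. The only gene with opposite calls was Ifi27l2a, a small membrane protein, for which all arrays are given in the plot of 8 genes. It was 12.36, 12.26, 12.29 and 12.32 in Batf-/- day 3 arrays, against 11.78, 12.02 and 12.13 in Batf-/- naive arrays, all higher at day 3. In WT cells it was 11.98, 11.95, 12.10 and 12.16 at day 3, against 12.26 and 12.33 in naive cells, all lower. The differences were 0.33 ± 0.08 (limma adjusted p = 0.00494) and -0.24 ± 0.09 (adjusted p = 0.0494), and the WT call was lost in 10 of 13 fits that left out 1 array. The difference between both changes was 0.57 ± 0.13 and did not pass (adjusted p = 0.0725).

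**Figure D4:**
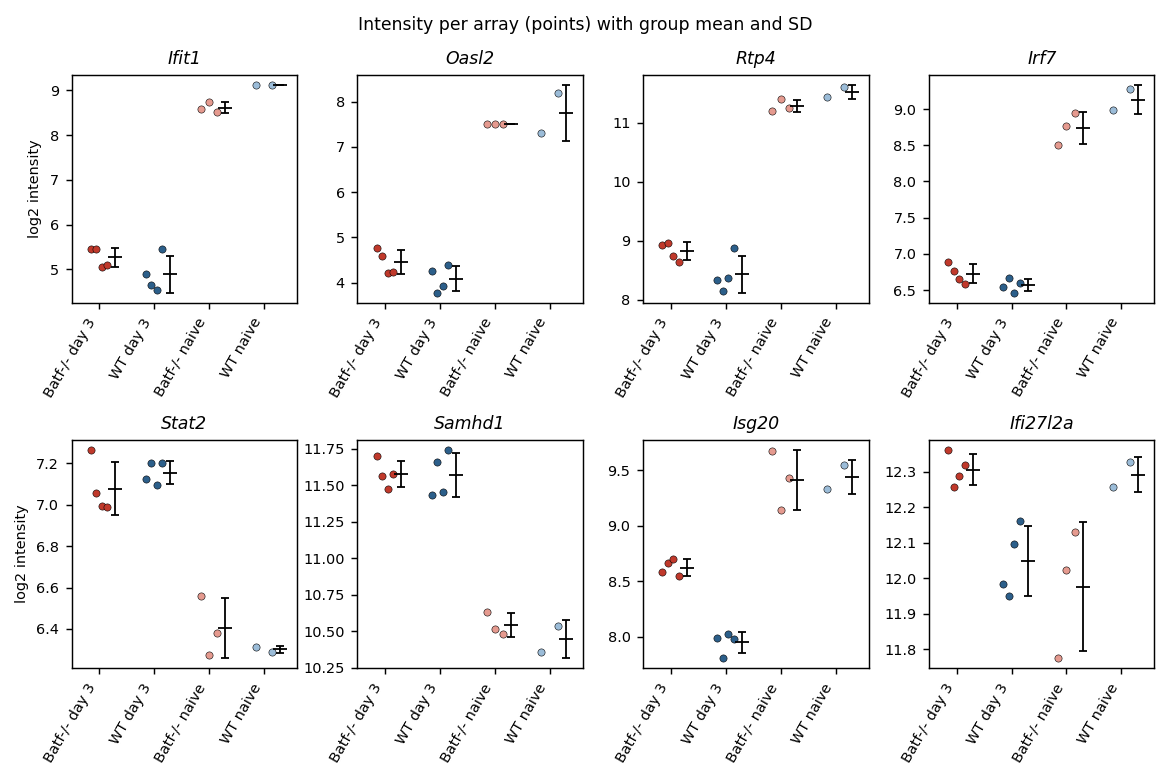
Log2 intensity per array (points) with group mean and SD for 8 genes, from left to right Batf-/- day 3, WT day 3, Batf-/- naive and WT naive. In Isg20 the 4 Batf-/- day 3 arrays, between 8.54 and 8.70, lie above the WT day 3 arrays, between 7.81 and 8.03.

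The comparison of genotypes at day 3 asks whether loss of Batf alters the interferon response genes in activated cells. Of the 37 genes 1 passed, Isg20, which was higher in Batf-/- cells, while 1.37% of all genes passed and 0.665% passed as higher. Isg20 encodes an RNA exonuclease and lies at chr7:78913396-78920396. It was 8.58, 8.66, 8.70 and 8.54 in Batf-/- day 3 arrays, against 7.99, 7.81, 8.03 and 7.98 in WT day 3 arrays. The groups were apart by several times their spread, and Isg20 was 1.59-fold higher in Batf-/- cells (log2 difference 0.67 ± 0.10, limma adjusted p = 0.00492). Leaving out each array in turn kept the difference between 0.63 and 0.70 and the adjusted p between 0.000705 and 0.0243. In naive cells Isg20 was 9.67, 9.14 and 9.43 in Batf-/- arrays, against 9.33 and 9.55 in WT arrays, and these overlap (difference -0.03 ± 0.13, adjusted p = 0.947). It fell on stimulation by 0.79 on the log2 scale in Batf-/- cells and by 1.49 in WT cells. The difference between these falls was 0.70 ± 0.16 and did not pass (adjusted p = 0.0823).

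Apart from Isg20, day 3 differences of the 37 genes were small. They lay above 0 for 28 of the 37 genes, against 55.5% of all genes, with a median of 0.08, against 0.01. The arrays of both genotypes did not overlap for 4 genes that were higher in Batf-/- cells (Isg20, Ifi35, Ifi27l2a and Oas3) and for 0 that were lower, against 7.44% and 5.34% of all genes. An unadjusted p below 0.05 was found for 13 of the 37 genes, 10 higher and 3 lower, against 12.6% of all genes. Ifi35, a leucine zipper protein induced by interferon, was 10.94, 11.11, 11.11 and 11.01 in Batf-/- day 3 arrays, against 10.72, 10.73, 10.72 and 10.90 in WT day 3 arrays. It differed by 0.27 ± 0.07 and did not pass (adjusted p = 0.0717), while of its 2 other probe sets 1 did (0.30, adjusted p = 0.0429 over all probe sets) and 1 did not (0.21, adjusted p = 0.247). Rtp4 differed by 0.39 ± 0.13 (adjusted p = 0.207), Ifit1 by 0.38 ± 0.17 (adjusted p = 0.377) and Oasl2 by 0.37 ± 0.19 (adjusted p = 0.465). At the other end, Cmpk2 differed by -0.30 ± 0.13 (adjusted p = 0.373). The factors stayed within -0.08 for Stat2 and 0.15 for Irf7, with intervals at 95% of -0.24 to 0.09 for Stat2, -0.19 to 0.18 for Irf9 and -0.07 to 0.37 for Irf7. Over all 37 genes the intervals at day 3 reached at most from -0.59 to 0.89.

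**Figure D5:**
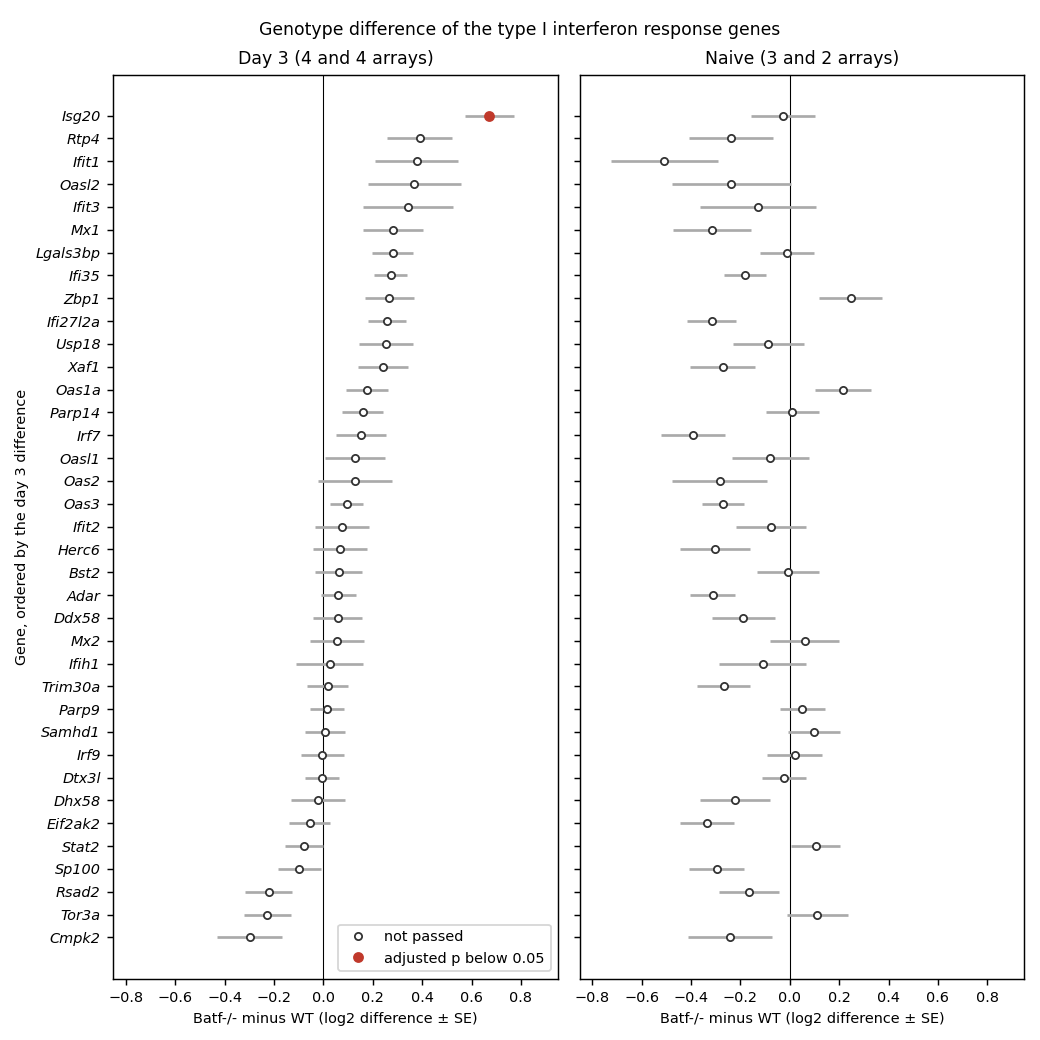
Log2 difference of Batf-/- minus WT for each of the 37 genes at day 3 (left) and in naive cells (right), with standard errors, ordered by the day 3 value. The filled point is Isg20 at 0.67, the only gene that passed, and no gene passed in naive cells.

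The day 3 values of these genes moved together from array to array within a genotype. WT day 3 replicate 4 was the highest of its group for 31 of the 37 genes, against 31.9% of all genes, and its mean over the 37 was 8.12, against 7.88 to 7.91 in the other WT day 3 arrays. Ifit1 (5.46, against 4.54 to 4.91), Ifit3 (7.78, against 7.02 to 7.11) and Rtp4 (8.88, against 8.15 to 8.36) show it best. Batf-/- day 3 replicate 1 was the highest of its group for 28 of the 37 genes, against 36.3% of all genes, with a mean of 8.19, against 7.97 to 8.11 in the other Batf-/- day 3 arrays. Both arrays also had the highest Batf value of their group, 6.78 in Batf-/- replicate 1 and 9.19 in WT replicate 4. Without WT day 3 replicate 4, 4 of the 37 genes passed as higher in Batf-/- cells at day 3, namely Isg20, Ifi35 (0.32, adjusted p = 0.0416), Rtp4 (0.54, adjusted p = 0.0208) and Ifit1 (0.57, adjusted p = 0.0499). Without that array the difference between the changes on stimulation also passed for Ifit1 (1.07, adjusted p = 0.032) and Rtp4 (0.78, adjusted p = 0.0473). Over all 13 fits that left out 1 array, the day 3 adjusted p lay between 0.0348 and 0.217 for Ifi35, between 0.0208 and 0.471 for Rtp4 and between 0.0499 and 0.677 for Ifit1. Without Batf-/- naive replicate 1, which enters the day 3 comparison only through the pooled spread, 3 genes passed at day 3, Isg20, Ifi35 and Ifi27l2a. Calls over all genes also moved over the 13 fits. Between 122 and 563 of 18194 genes passed at day 3, against 250 with all arrays. For the interaction 58 to 283 passed, against 118. What sets WT day 3 replicate 4 and Batf-/- day 3 replicate 1 apart was not tested.

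The comparison of genotypes in naive cells asks whether Batf matters for the basal level. By limma, 0 of the 37 genes passed, against 1.08% of all genes, and 8 had an unadjusted p below 0.05, all lower in Batf-/- cells, against 13.6% of all genes. Differences were below 0 for 28 of the 37 genes, against 50% of all genes, with a median of -0.16. The arrays did not overlap for 12 genes that were lower and 1 that was higher in Batf-/- cells, against 12.7% and 11.8% of all genes. Adar had the lowest adjusted p (0.151), with 8.41, 8.65 and 8.55 in Batf-/- naive arrays, against 8.85 and 8.85 in WT naive arrays. Irf7 differed by -0.39 ± 0.13 (adjusted p = 0.205) and Ifit1 by -0.51 ± 0.22 (adjusted p = 0.329). With 3 and 2 arrays the intervals were wide and reached from -0.98 to 0.52 over the 37 genes. Batf-/- naive replicate 1, the array with high neutrophil markers, was the lowest of its group for 21 of the 37 genes, against 40.3% of all genes, and without it 24 of the 37 differences were below 0.

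The interaction tests whether the change on stimulation itself differs between the genotypes. It passed for 0 of the 37 genes by limma, against 0.649% of all genes, and 10 had an unadjusted p below 0.05, all positive, against 11.9% of all genes. Of the 37 values 28 were above 0, against 53.1% of all genes, with a median of 0.25, against 0.01. The largest was that of Ifit1, 0.88 ± 0.28 (adjusted p = 0.201), followed by Isg20. Ifi35, at 0.45 ± 0.11 (adjusted p = 0.0879), followed Ifi27l2a and Isg20 in order of p. This value uses the same arrays as the comparisons above and adds no separate evidence.

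Upstream of the genes, most of the measured interferons were dim. Of 21 interferon genes listed, 10 were measured, and Ifnb1, Ifna2, Ifna4, Ifna5, Ifna11 and Ifnab were dim in all 4 groups. The other 4 were above the dim level in every group, with Ifna1 between 4.78 and 5.28, Ifna9 between 5.02 and 5.53 and Ifnz between 6.45 and 7.09 over the 13 arrays. Ifng, the T cell interferon, was the only one of the 10 that passed between genotypes, with 7.18, 7.35, 7.32 and 7.14 in Batf-/- day 3 arrays, against 6.92, 7.00, 6.93 and 6.84 in WT day 3 arrays. In naive cells it was 6.44, 6.66 and 6.54 in Batf-/- arrays, against 5.70 and 5.90 in WT arrays. It was higher in Batf-/- cells by 0.33 ± 0.07 at day 3 (adjusted p = 0.0498, lost in 9 of 13 fits that left out 1 array) and by 0.75 ± 0.09 in naive cells (adjusted p = 0.00199). It rose on stimulation by 0.70 in Batf-/- and 1.12 in WT cells. Ifna1 rose in WT cells (0.37) and Ifna5, which is dim in all groups, in Batf-/- cells (0.50).

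Of 10 measured genes, which are receptors, kinases and Stat3, 4 rose and 3 fell on stimulation in each genotype. Of all genes 23.8% rose and 23.2% fell in Batf-/- cells, and 22.4% rose and 23% fell in WT cells. With 10 genes, 3 lower is near the share of all genes. Ifnar2, the signalling chain of the type I receptor, rose by 0.66 in Batf-/- and 0.93 in WT cells, and Ifngr1, the ligand-binding chain for interferon gamma, by 0.72 and 0.60. Ifngr2 changed by -0.91 and -0.77, and Jak2, the kinase it carries, by -0.67 and -0.76. None of the 10 passed between genotypes in either state. Of the 13 genes that sense nucleic acid and induce interferon, 8 fell and 1 rose in Batf-/- cells, and 7 fell and 1 rose in WT cells, beside the same shares of all genes. Ikbke, a kinase that activates interferon factors, changed by -1.47 and -1.69, and Tlr3, dim at day 3, by -1.65 and -1.71. Mavs, the adaptor of the RNA sensors, rose by 0.49 and 0.52. Irf5, a factor of myeloid and B cells, was higher in Batf-/- naive cells, at 7.16, 6.71 and 7.19, against 6.34 and 6.27 in WT naive cells (difference 0.72 ± 0.13, adjusted p = 0.0161), and its change on stimulation differed between genotypes by -0.82 ± 0.16 (adjusted p = 0.0377). The naive call was lost in 3 of 13 fits that left out 1 array and the second in 10 of 13.

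Of 12 measured repressors of the pathway, 6 fell and 2 rose in Batf-/- cells (of all genes, 23.2% fell and 23.8% rose), and 5 fell and 2 rose in WT cells (of all genes, 23% and 22.4%). Socs3, which blocks Jak kinases, changed by -1.72 and -1.81, and Irf2bp2, a corepressor of Irf2, by -0.82 and -0.86. Socs1, the main brake on interferon receptors, rose by 0.83 and 0.78, and Ptpn2, a phosphatase of Jak and Stat proteins, by 0.75 and 0.52. Rnf125, a ubiquitin ligase that targets the RNA sensors, was lower in Batf-/- cells at day 3, at 10.60, 10.49, 10.39 and 10.53, against 10.92, 10.79, 10.82 and 10.83 in WT cells (difference -0.34 ± 0.06, adjusted p = 0.0132, lost in 3 of 13 fits that left out 1 array).

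A further list of other interferon stimulated genes, with 62 of 71 measured, also fell more often than it rose. In Batf-/- cells 36 fell and 9 rose, and in WT cells 33 fell and 11 rose, with medians of -0.53 and -0.42. Of all genes 23.2% fell and 23.8% rose in Batf-/- cells, and 23% fell and 22.4% rose in WT cells. Slfn5, of the Schlafen family, changed by -4.06 and -4.47 and was dim at day 3, so both are lower bounds by size, and Ddx60, a helper of RNA sensing, by -2.89 and -3.13. Mlkl, which executes necroptosis, rose by 1.07 in Batf-/- and 2.22 in WT cells, followed by Irf8 in Batf-/- cells (0.95) and Iigp1 in WT cells (1.76). Iigp1, an immunity-related GTPase, was 10.73, 10.27 and 9.93 in Batf-/- naive arrays, against 8.35 and 8.60 in WT naive arrays (difference 1.83 ± 0.27, adjusted p = 0.00494). At day 3 it was 10.74, 10.80, 10.49 and 10.29 in Batf-/- arrays, against 10.09, 10.18, 9.86 and 10.83 in WT arrays, and WT replicate 4 was again the high one. Between genotypes at day 3, 0 of the 62 passed by limma, with differences between -0.32 and 1.43 and a median of 0.02. The arrays did not overlap for 7 that were higher and 3 that were lower in Batf-/- cells, against 7.44% and 5.34% of all genes. Ifitm3 lay between 7.43 and 7.80 in Batf-/- day 3 arrays, against 5.55 to 6.74 in WT day 3 arrays. Ube2l6, the conjugating enzyme for ISG15, was 5.18, 4.77 and 5.14 in Batf-/- naive arrays, against 3.78 and 4.55 in WT naive arrays (0.86 ± 0.19, adjusted p = 0.0498), with the WT mean dim. The Ube2l6 call was lost in 11 of 13 fits that left out 1 array and that of Iigp1 in 1 of 13. These naive differences of Ifng, Irf5, Iigp1 and Ube2l6 stand beside NK cell markers that were higher in Batf-/- naive arrays for 2 of 5 genes (means of 7.36 to 8.22, against 6.51 to 6.71) and B cell markers that were higher for 3 of 9 (6.34 to 6.79, against 5.75 to 6.09). Monocyte and macrophage markers were higher for 1 of 8, with 7 of 8 differences above 0 and a median of 0.43. Neutrophil markers passed for 0 of 8 by limma, and 0 of 8 had an unadjusted p below 0.05, with all 8 differences above 0 and a median of 1.04. The part of these markers was not tested. With the 5 naive arrays fitted alone, none of the 4 genes passed, with adjusted p between 0.283 for Iigp1 and 0.723 for Ube2l6 and the same log2 differences.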

How the data were processed

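RNA of P14 CD8+ T cells was measured on 13 oligonucleotide arrays. Per the submitters' processing notes, the authors summarised probe sets with RMA, and the deposited values are probe set intensities on a linear scale, which were converted here to log2 without further normalisation. RMA corrects background and normalises arrays to each other. Of 45101 probe sets 34958 carry 1 gene name, and the probe set with the highest mean stood for each of 18194 genes. A limma 3.58.1 model (R 4.3.3) with a mean for each of the 4 groups took in all 13 arrays (9 residual and 3.702 prior degrees of freedom), with Benjamini-Hochberg adjustment over all genes of a contrast. The analysis was tested on simulated data. Members and lists were chosen with earlier results of these data known. Arrays are given in full for members that passed between genotypes or in the interaction, for the 5 largest rises and falls on stimulation and for Irf7, Irf9 and Stat2. Other genes of the pathway are named where they passed between genotypes or had the 2 largest rises or falls of their list. A few further members, named for comparison, were chosen after their values were seen. Alternatives were other normalisation, a filter on dim probe sets, the mean of probe sets, array quality weights, fits to only the groups compared, a block for replicate number and leaving out each array. The number of arrays limits the precision.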

Additional observations from a re-analysis of the deposited data

Results flagged for a closer look

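Some day 3 arrays lay far from the other 3 of their group for single genes, by a gap that takes up nearly the whole range of the group, past the critical value of Dixon's test. For independent values from a normal distribution, chance gives such a gap in about 1 in 20 groups. These genes moved together from array to array, so the checks below are not independent of each other. A gap also takes up more of the range where the other 3 values happen to lie close together. Among 43 genes checked, 3 had one in Batf-/- day 3 cells and 6 in WT day 3 cells. In Batf-/- cells all 3 were high values of replicate 1, namely Oas3 at 7.39 (the others between 7.25 and 7.26), Bst2 at 9.50 (9.28 to 9.30) and Sp100 at 9.82 (9.66 to 9.67). In WT cells all 6 were values of replicate 4. The high ones were Usp18 at 8.87 (8.46 to 8.53), Zbp1 at 9.43 (9.05 to 9.11), Ifit3 at 7.78 (7.02 to 7.11), Ifi35 at 10.90 (10.72 to 10.73) and Xaf1 at 8.98 (8.69 to 8.73). Dhx58 was low in the same array, at 7.94 (8.26 in the others). The change of Irf5 on stimulation differed between the genotypes, by -0.82 on the log2 scale for Batf-/- minus WT, by the test of the interaction.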

How the results depend on the processing

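On stimulation the count in Batf-/- cells was 34 under every setting run, but not always of the same genes. With the mean of all probe sets, Sp100 no longer passed there and Zbp1 passed as lower (-0.32). In WT cells 31 to 36 genes passed, and 31 to 35 when 1 array was left out. Between genotypes at day 3 the count was 1, Isg20, after median centring, quantile normalisation or the replicate block. It was 2 without the dim 40% of probe sets or with the mean of all probe sets (Ifi35 added), 3 with the compared groups alone (Ifi35 and Ifi27l2a added), 5 with array quality weights (Ifi35, Rtp4, Ifi27l2a and Lgals3bp added) and 1 to 4 when 1 array was left out. All added genes were higher in Batf-/- cells. In naive cells it was 0 under every setting run. The interaction count was 0, but 1 (Ifi27l2a) without the dim 40% of probe sets, 3 with array quality weights (Isg20, Ifi35 and Ifi27l2a) and 0 to 2 when 1 array was left out. Sp100 turned with the mean of its probe sets, to -0.037 in Batf-/- and -0.21 in WT cells, its other probe set having fallen. Bst2 in WT cells did not pass without WT naive replicate 2.

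Counts over all genes moved more. At day 3, 250 genes passed, against 689 with the groups alone, 1306 with weights, 125 with the replicate block and 122 to 563 without 1 array. In naive cells 196 passed, against 1 with the groups alone, 459 with weights, 87 with the block and 97 to 627 without 1 array. For the interaction 118 passed, against 542 with weights, 50 with the block and 58 to 283 without 1 array. The labels number the replicates without saying that a number pairs samples, and deviations of same-numbered arrays correlated between -0.09 and 0.04 at day 3 and at -0.24 and -0.26 in naive cells. With the replicate block, 34 genes passed in each stimulation comparison, 1 at day 3, 0 in naive cells and 0 in the interaction, and the calls of Sp100 in WT cells (0.31), Rnf125 at day 3 (-0.34), Ube2l6 in naive cells (0.82, lost with median centring too) and Irf5 in the interaction (-0.78) were lost. With median centring the day 3 call of Ifng was lost (0.32). What underlies these shifts was not tested.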
